A study of Mus musculus with 24 samples.

Results

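The subunits that set canonical BAF and non-canonical BAF (ncBAF) apart from the other SWI/SNF complexes were followed at the RNA level in mouse myoblasts in which 1 SWI/SNF subunit at a time had been knocked down. The members were listed by name: *Arid1a*, *Arid1b*, *Dpf1*, *Dpf2*, *Dpf3*, *Brd9*, *Bicra*, *Bicral*, *Ss18* and *Ss18l1*. All 10 were found by symbol among the 55291 gene symbols of the count table. The rule that lists them uses no measured value, although earlier results of these data were known when it was set.

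SWI/SNF complexes use the energy of ATP to slide and evict nucleosomes, and they occur in 3 forms that share an ATPase and a core but differ in a few subunits. Canonical BAF carries ARID1A (also called Baf250a) or its paralogue ARID1B, which are mutually exclusive in a complex, together with a double PHD finger protein (DPF1, DPF2 or DPF3). The ncBAF form lacks ARID subunits and holds BRD9, a bromodomain protein, with BICRA or BICRAL. SS18 and its paralogue SS18L1 are found in canonical BAF and ncBAF but not in PBAF, the form that carries Baf180 (encoded by *Pbrm1*). In muscle, BAF complexes are known as cofactors of the myogenic transcription factors.

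The libraries came from proliferating C2C12 cells, an established mouse myoblast line by the study's methods, although the labels describe primary mouse myoblasts. The 4 stable lines compared were cells with a scrambled shRNA (scr) and cells with an shRNA against *Baf180*, *Baf250a* or *Brd9* (KD), each a puromycin-selected population. Every line was grown for 48 h without added metal (NT), with 100 µM CuSO4 or with 50 µM ZnSO4, and each of the 12 conditions had 2 independent biological replicates, 24 libraries in all. The KDs shared the scr libraries, so their comparisons with scr are not independent of each other. Whether the replicates of a line came from separate transductions is not stated in the sources used here. A difference made by the KD therefore cannot be told apart from other differences between the populations. The p values cover the spread between libraries only.

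Both hairpins designed against each targeted member are shown, to see which paralogues hold an exact match to them. The stretches are the 21-base sense strands, 5′ to 3′, in lower case. Which of the hairpins was carried by the sequenced cells is not stated in the sources used here.
Baf250A shRNA1: ctttatagtatggcgagttaa
Baf250A shRNA2: cctaggcagcctaactataat
Brd9 shRNA1: tggactttggcacgatgaaag
Brd9 shRNA2: caccgaatggtgtccaataag
scr shRNA: caacaagatgaagagcaccaa

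Matched without mismatch to the GENCODE transcripts of GRCm38, both Baf250A hairpins were found in transcripts of *Arid1a* and of no other gene. The first lies in the 3′ UTR within exon 20 of 20 (chr4:133679414-133679434, minus strand) and is held by 2 of 4 protein-coding *Arid1a* transcripts. The second lies in the coding sequence within exon 8 of 20 (chr4:133694042-133694062, minus strand) and is held by 3 of the 4. The best alignment of either to an *Arid1b* transcript had 7 mismatches. The Brd9 hairpins matched only *Brd9*, in the coding sequence of exon 5 of 16 (chr13:73940726-73940746, plus strand, 4 of 4 protein-coding transcripts) and in the 3′ UTR of exon 16 (chr13:73960500-73960520, 2 of 4). The scr hairpin matched no transcript exactly. Matches were sought over the full sense strand only, so effects on other genes through shorter matches were not tested.

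Library totals ran from 495778 to 75179394 counts. Replicate 2 of *Baf250a* KD with Zn was the lowest, and the next lowest held 12719173, so results of that condition are also given without it. No pair of libraries held identical counts. Of the marker lists, the 8 myoblast genes summed to 7620 to 10500 CPM (counts scaled to library size with TMM factors) in scr, 6710 to 9100 in *Baf180* KD, 8070 to 9880 in *Brd9* KD and 5890 to 6640 in *Baf250a* KD cells, where all libraries lay below those of scr. *Ptprc*, *Adgre1*, *Cdh5*, *Adipoq*, *Plin1*, *Epcam*, *Rbfox3* and *Snap25*, which mark leukocytes, endothelium, fat, epithelium and neurons, had medians of at most 0.0452 CPM in every line. Of the other markers of these types, *Pecam1* and *Krt8* had medians of at most 0.257 and 0.15 CPM, and the lysosomal *Cd68* stood at medians of 3.42 to 5.17 CPM and was above 0 in every library. The 6 genes of differentiating muscle differed between the lines: they summed to 69.9 to 105 CPM in scr, 117 to 169 in *Baf180* KD, 58.9 to 73.2 in *Baf250a* KD and 32.1 to 38.6 in *Brd9* KD cells, and 5, 4 and 5 of the 6 were differentially expressed genes (DEGs) in *Baf180*, *Baf250a* and *Brd9* KD over the treatments. Of the 8 myoblast genes 6, 7 and 8 were DEGs, beside 41.3%, 51.8% and 32.8% of all genes tested. *Vim* and *Acta1* were the largest parts of the sums, and single genes went either way. From scr to *Baf250a* KD the medians of *Myog* (5.04 to 9.60 CPM), *Myh3* (4.94 to 8.72) and *Mymk* (3.24 to 4.23) were higher. Those of *Acta1* (56.1 to 31.6), *Tnnt3* (11.4 to 9.85) and *Ckm* (1.90 to 0.898) were lower. Of the myoblast genes, *Myod1* alone was higher there (92.7 to 134), and *Myf5* (169 to 38.4) and the rest were lower. The part of both lists in the results on the members was not tested.

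In scr cells the members spanned a wide range of levels per length (CPM per kb of merged exons, mean ± SD over 6 libraries). *Arid1a* was the highest at 25.3 ± 1.24, followed by *Dpf2* at 15.2 ± 1.45 and *Arid1b* at 10.6 ± 0.765. *Ss18* stood at 7.15 ± 0.596, *Bicral* at 5.99 ± 0.50, *Bicra* at 4.76 ± 0.252 and *Brd9* at 4.20 ± 0.248. *Ss18l1* reached 2.03 ± 0.168 and *Dpf1* 1.22 ± 0.155. The ranges of *Ss18* and *Bicral* overlapped, as did those of *Bicra* and *Brd9*, and the other neighbours in this order did not overlap. *Dpf3*, a DPF paralogue best known from heart and skeletal muscle development, had 0 to 9 counts in a library. It passed the filter on low counts in 0 of 29 comparisons, while the other 9 members passed it in all 29.

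**Figure D1:**
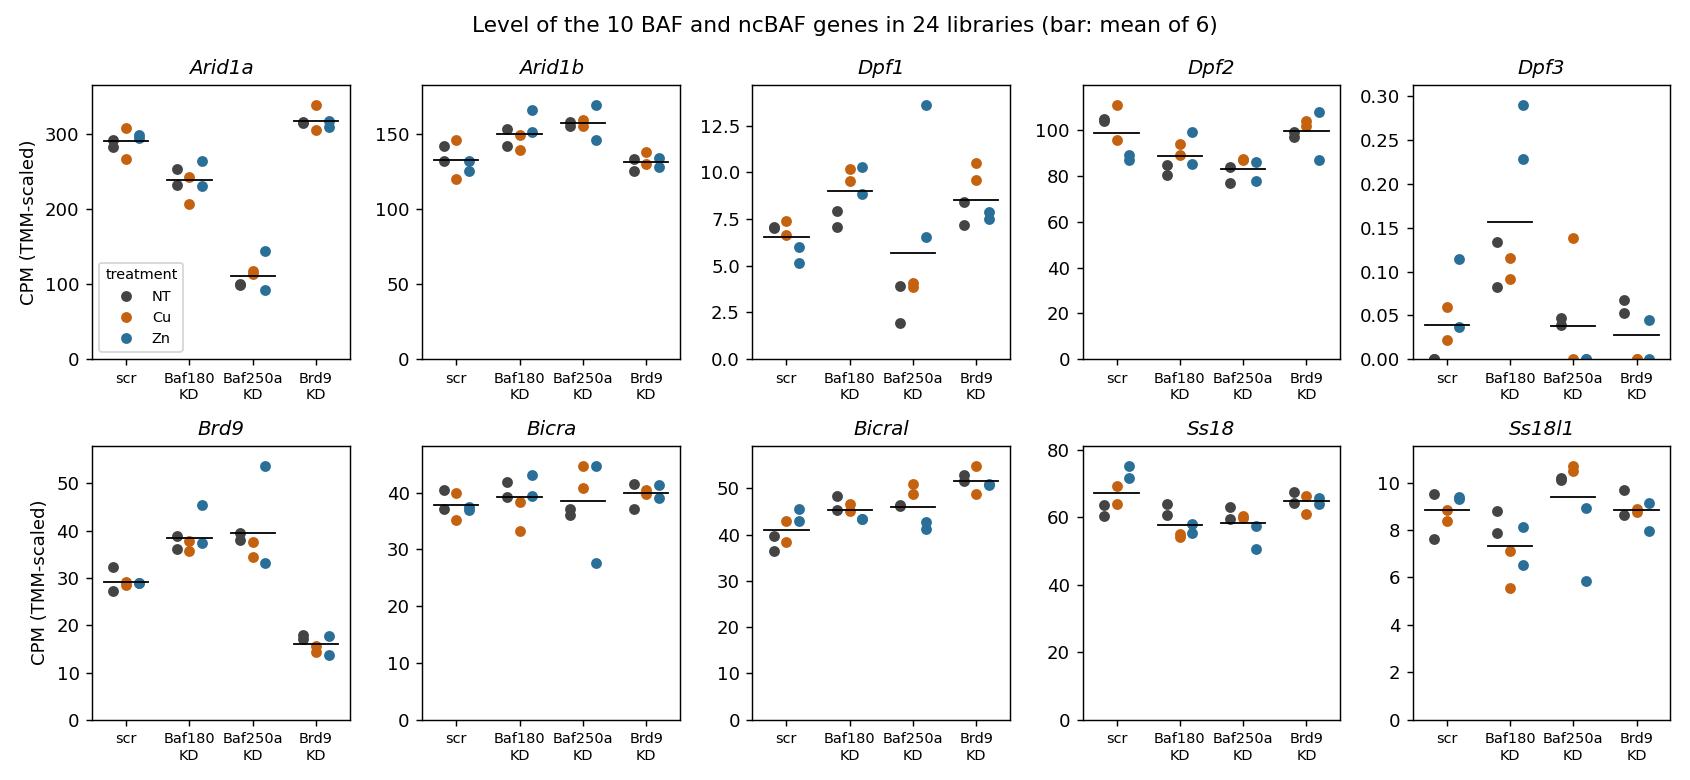
Level of each member in CPM (linear axis from 0) in 24 libraries, by line on the horizontal axis and by treatment in colour, with a bar at the mean of 6 libraries. *Arid1a* was lowest in *Baf250a* KD (92.0 to 144 CPM) and *Brd9* was lowest in *Brd9* KD cells (13.8 to 17.9 CPM), while *Brd9* in *Baf180* and *Baf250a* KD lay above every scr library.

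*Arid1a* (ENSMUSG00000007880.16, GRCm38 chr4:133679008-133756769, minus strand) was the target in *Baf250a* KD cells, and its RNA fell to 37.7% of scr (95% interval 32.7 to 43.5). Its level was 266 CPM at the lowest, 293 at the median and 308 at the highest of 6 scr libraries. In *Baf250a* KD it was 92.0, 107 and 144 CPM in the same order, so all 6 libraries lay below all 6 of scr. With treatment as a block the log2 fold change was -1.41 ± 0.10 (SE, adjusted p = 2.52e-08, edgeR's quasi-likelihood test with Benjamini-Hochberg adjustment over 15822 genes). The highest of the 6, 144 CPM, was the shallow Zn library, with 74 *Arid1a* counts. Without that library the fold change was -1.48 and the RNA stood at 35.9% of scr. In bulk RNA, fewer cells that express a gene and less RNA per cell cannot be told apart, here and for every member.

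The fall was of similar size at each treatment. In NT cells *Arid1a* was at 100 and 98.8 CPM in *Baf250a* KD and at 283 and 292 in scr, which left 34.6% (29.8 to 40.2). With Cu it was at 117 and 113 CPM against 308 and 266, which left 40.7% (33.9 to 48.8). With Zn it was at 92.0 and 144 CPM against 298 and 294, which left 33.4% (28.0 to 39.9), or 30.3% without the shallow library. The 3 intervals overlapped. The Cu and Zn responses of *Arid1a* did not pass the test of a difference between *Baf250a* KD and scr (log2 differences of 0.21 ± 0.17 and 0.02 ± 0.18, adjusted p = 0.735 and 0.958), and the Zn value was -0.16 (adjusted p = 0.457) without the shallow library.

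*Arid1a* was also lower in *Baf180* KD cells, where it was no target. It ranged from 206 to 264 CPM with a median of 237, again with all 6 libraries below all 6 of scr. The log2 fold change was -0.30 ± 0.06 (81.0% of scr, adjusted p = 0.00148), and -0.20 (adjusted p = 0.158) with all libraries thinned to the smallest total. In *Brd9* KD cells *Arid1a* ran from 305 to 338 CPM (median 315), with 5 of 6 libraries above the highest of scr. The log2 fold change was 0.11 ± 0.05 (adjusted p = 0.122), which did not pass the test. It passed when genes under a mean of 50 normalized counts were dropped (0.15, adjusted p = 0.0172).

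*Arid1b* (ENSMUSG00000069729.14, GRCm38 chr17:4994332-5347656, plus strand), the paralogue that can take the place of *Arid1a* in a BAF complex, was slightly higher in *Baf250a* KD cells. It ran from 120 to 146 CPM with a median of 132 in scr and from 146 to 169 with a median of 157 in *Baf250a* KD. Of the 6 KD libraries 5 lay above the highest of scr. The log2 fold change was 0.25 ± 0.07 (119% of scr, 95% interval 107 to 132, adjusted p = 0.00929), and it ran from 0.21 to 0.28 with 1 library left out in turn. The rise depended on the correction for gene properties: with an offset for GC content and length the fold change of *Arid1b* was 0.00 (adjusted p = 0.969), on a scale on which the median of all genes moved by -0.12. Without a filter on low counts it was 0.21 (adjusted p = 0.0619), and with thinned libraries 0.22 (adjusted p = 0.249). At single treatments it was 0.19 in NT, 0.26 with Cu and 0.20 with Zn, and the adjusted p values of 0.119, 0.118 and 0.0608 did not pass.

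In *Baf180* KD cells *Arid1b* ran from 139 to 166 CPM (median 150), with a log2 fold change of 0.15 ± 0.06 (adjusted p = 0.0587). *Arid1b* passed there in the fit without replicate 1 of scr with Cu (0.19, adjusted p = 0.0181). It also passed when genes under a mean of 50 normalized counts were dropped (0.18, adjusted p = 0.0133). In *Brd9* KD cells it ran from 125 to 138 CPM (median 131) and the fold change was -0.03 ± 0.06 (adjusted p = 0.697), with an interval from 89.9% to 106% of scr.

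The balance of the ARID1 pair was compared within each library, which needs no scaling between libraries. *Arid1a* made up 70.5 ± 1.18% of the summed level per length of *Arid1a* and *Arid1b* in scr (range 68.6 to 72.0%, SD, n = 6). In *Baf250a* KD cells the share was 43.4 ± 2.96% (40.6 to 48.3%), a difference of -27.2 percentage points. All KD libraries lay below all scr libraries. The two-sided exact permutation test over libraries, with labels exchanged within treatments, gave p = 0.00926, the smallest its 216 assignments allow (0.0238 adjusted over 18 shares tested). The 48.3% came from the shallow library, where counting error alone spans 40.7 to 56.0% (95% Wilson interval), and without it the difference was -28.1 points. The summed level of the pair fell from 35.8 ± 1.82 to 22.1 ± 2.18 CPM per kb, to 61.7% of scr (exact permutation p = 0.00926, adjusted over 12 sums p = 0.0370).

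The share moved in the other KDs as well. It was 63.5 ± 0.983% in *Baf180* KD, lower by 7.04 points (difference -7.04, exact permutation p = 0.00926, adjusted p = 0.0238), with no overlap with scr. In *Brd9* KD it was 72.6 ± 0.63%, higher by 2.04 points (exact permutation p = 0.0185, adjusted p = 0.0370), with overlapping ranges. With coding length in place of exon length the 3 differences were -7.24, -27.4 and 2.11 points. That change scales the ratio of the pair alike in every library, so it cannot change their order and is no independent check. The offset for GC content and length was not applied to the shares. The summed level of the pair did not pass the adjusted test in these lines (91.1% of scr in *Baf180* KD and 106% in *Brd9* KD, adjusted exact permutation p = 0.0889 and 0.0952).

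**Figure D2:**
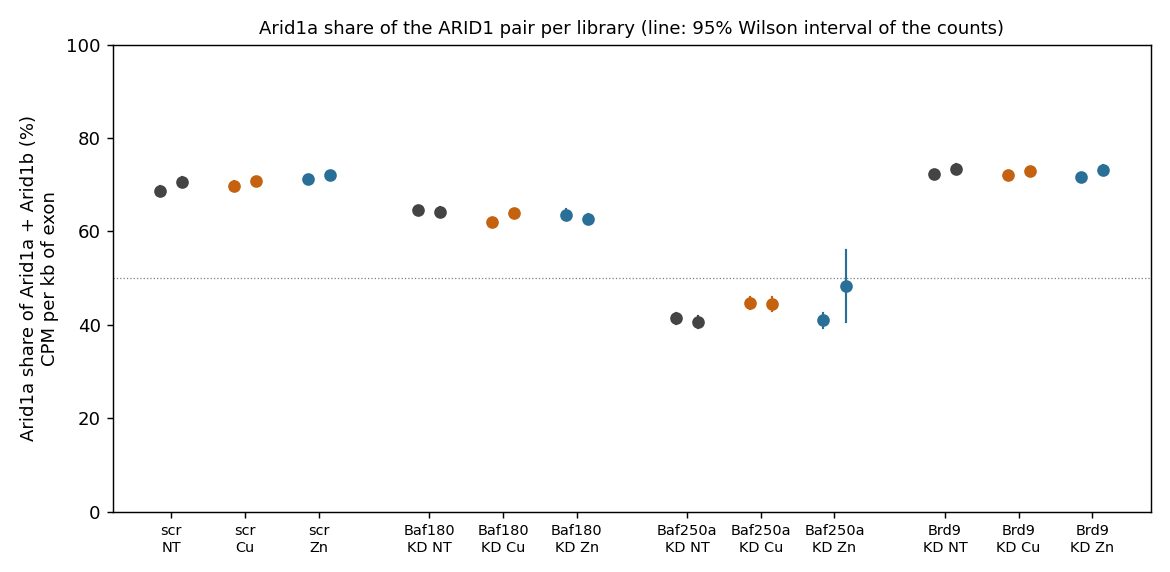
Share of *Arid1a* in the summed CPM per kb of *Arid1a* and *Arid1b* (percent, axis from 0 to 100) for each of 24 libraries, by line and treatment. Vertical lines are 95% Wilson intervals, which cover counting error only. *Baf250a* KD libraries lay between 40.6 and 48.3%, *Baf180* KD between 62.0 and 64.5%, scr between 68.6 and 72.0% and *Brd9* KD between 71.7 and 73.4%.

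*Brd9* (ENSMUSG00000057649.6, GRCm38 chr13:73937811-73960895, plus strand), the bromodomain subunit of ncBAF, fell to 54.2% of scr (95% interval 48.2 to 61.0) in *Brd9* KD cells. In scr it ran from 27.2 to 32.4 CPM with a median of 28.9, and in *Brd9* KD from 13.8 to 17.9 with a median of 16.4. The groups did not overlap. Over the treatments the log2 fold change was -0.88 ± 0.08 (adjusted p = 1.49e-06). With all libraries thinned to the smallest total it was -0.60 (adjusted p = 0.198) and did not pass. The loss was smaller than that of *Arid1a* in *Baf250a* KD, and the intervals of the remaining RNA (48.2 to 61.0% and 32.7 to 43.5%) did not overlap.

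By treatment, 59.2% of *Brd9* remained in NT (17.9 and 17.0 CPM against 27.2 and 32.4), 51.4% with Cu (14.3 and 15.7 against 28.6 and 29.2) and 52.7% with Zn (13.8 and 17.7 against 29.0 and 28.9). Adjusted p values were 0.0060, 0.00291 and 0.00157, and none of the 3 passed with thinned libraries (log2 fold changes of -0.53, -0.38 and -0.92, adjusted p = 0.478, 0.810 and 0.355). The NT call was lost without replicate 2 of *Brd9* KD NT (log2 fold change -0.76, adjusted p = 0.0517). The metal responses of *Brd9* were not shown to differ between *Brd9* KD and scr (log2 differences of -0.17 ± 0.19 for Cu and -0.11 ± 0.19 for Zn, adjusted p = 0.657 and 0.724).

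*Brd9* rose in both other KDs. It ran from 35.8 to 45.4 CPM (median 37.6) in *Baf180* KD and from 33.1 to 53.7 (median 37.9) in *Baf250a* KD. Each of these 12 libraries lay above the highest scr library. Its log2 fold change was 0.38 ± 0.07 in *Baf180* KD (130% of scr, adjusted p = 6.58e-04) and 0.48 ± 0.10 in *Baf250a* KD (140%, adjusted p = 0.0010). With the offset for GC content and length the rises of *Brd9* were 0.25 and 0.31 and still passed (adjusted p = 0.00638 and 0.00719). They did not pass with all libraries thinned to the smallest total (0.35 and 0.42, adjusted p = 0.354 and 0.257). The highest value, 53.7 CPM, was replicate 1 of *Baf250a* KD with Zn, while the shallow replicate 2 had 17 *Brd9* counts.

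*Bicra* and *Bicral* encode the paralogous scaffold proteins of ncBAF, also known as GLTSCR1 and GLTSCR1L. *Bicral* (ENSMUSG00000036568.7, GRCm38 chr17:46798120-46858482, minus strand) rose in *Brd9* KD cells. It ran from 36.5 to 45.6 CPM (median 41.3) in scr and from 48.7 to 54.8 (median 51.2) in *Brd9* KD, with no overlap. The log2 fold change was 0.32 ± 0.07 (125% of scr, 95% interval 113 to 137, adjusted p = 0.00195), 0.27 with the offset for GC content and length (adjusted p = 0.00469) and 0.46 with thinned libraries, which did not pass (adjusted p = 0.15). At single treatments the rise passed in NT (139%, adjusted p = 0.0158), but not without either *Brd9* KD NT replicate (log2 fold changes of 0.49 and 0.41, adjusted p = 0.0763 and 0.162).

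*Bicral* did not pass over the treatments in the other KDs. In *Baf180* KD it ran from 43.3 to 48.3 CPM (log2 fold change 0.13 ± 0.07, adjusted p = 0.185). In *Baf250a* KD it ran from 41.2 to 50.9 CPM (0.20 ± 0.08, adjusted p = 0.0597). There *Bicral* passed without replicate 1 of *Baf250a* KD with Zn (0.27, adjusted p = 0.00523) and without replicate 1 of scr with Zn (0.23, adjusted p = 0.0452). It also passed when genes under a mean of 50 normalized counts were dropped (0.22, adjusted p = 0.0280). *Bicra* (ENSMUSG00000070808.4, GRCm38 chr7:15970672-16047921, minus strand) did not pass over the treatments in any KD. Its log2 fold changes were 0.03 ± 0.06, -0.01 ± 0.10 and 0.06 ± 0.06 in *Baf180*, *Baf250a* and *Brd9* KD. The intervals were 92.7 to 113%, 85.1 to 116% and 95.6 to 114% of scr. With the offset for GC content and length *Bicra* turned to -0.22 in *Baf180* KD and was called (adjusted p = 0.0230). The share of *Bicra* in the summed level of the pair was 44.4 ± 2.55% in scr and 40.0 ± 1.23% in *Brd9* KD (difference -4.33 points, exact permutation p = 0.00926, adjusted p = 0.0238). The summed level of both rose in *Brd9* KD to 117% of scr, from 10.8 ± 0.538 to 12.6 ± 0.406 CPM per kb (exact permutation p = 0.00926, adjusted p = 0.0370).

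The DPF proteins read histone acylation through their double PHD finger. *Dpf2*, the abundant paralogue (ENSMUSG00000024826.15, GRCm38 chr19:5896516-5913010, minus strand), fell slightly in *Baf250a* KD cells, from 87.2 to 111 CPM (median 100) in scr to 77.1 to 87.5 (median 85.1), with 5 of 6 KD libraries below the lowest of scr. The log2 fold change was -0.22 ± 0.07 (85.7% of scr, adjusted p = 0.0204). The *Dpf2* call was lost in 4 of 12 fits that left out 1 library (replicate 1 or 2 of *Baf250a* KD NT, replicate 1 of scr NT or replicate 1 of scr Cu), over which it ran from -0.27 to -0.19. In *Baf180* KD *Dpf2* ran from 80.3 to 99.2 CPM (-0.17 ± 0.07, adjusted p = 0.0642), and it passed without replicate 1 of *Baf180* KD with Zn. It also passed with the offset for GC content and length (-0.30, adjusted p = 1.80e-04), which moved the median of all genes by -0.10. *Dpf2* passed too when genes under a mean of 50 normalized counts were dropped (-0.15, adjusted p = 0.0498). In *Brd9* KD it ran from 87.2 to 108 CPM (0.00 ± 0.06, interval 91.5 to 110% of scr).

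*Dpf1* (ENSMUSG00000030584.14, GRCm38 chr7:29303951-29318243, plus strand), known as the neuronal DPF paralogue, moved in opposite directions among the KDs. In scr it ran from 5.15 to 7.41 CPM with a median of 6.83. It rose in *Baf180* KD (7.08 to 10.3 CPM, median 9.20, log2 fold change 0.43 ± 0.11, adjusted p = 0.0060) and in *Brd9* KD (7.17 to 10.5 CPM, median 8.15, 0.36 ± 0.09, adjusted p = 0.00903). In each, 5 of 6 libraries lay above the highest of scr. In NT, Cu and Zn the *Dpf1* log2 fold changes were 0.11, 0.47 and 0.69 in *Baf180* KD, where Zn alone was called. They were 0.16, 0.50 and 0.41 in *Brd9* KD, where no single treatment was called. In *Baf250a* KD the *Dpf1* level depended on the treatment. It was 3.91 and 1.93 CPM in NT against 7.07 and 7.01 in scr, 42.1% of scr (adjusted p = 0.00188). This NT log2 fold change of -1.25 became -1.88 without replicate 1 of *Baf250a* KD NT and -0.84 without replicate 2, and it was called in both fits. *Dpf1* was 4.08 and 3.87 CPM with Cu against 6.64 and 7.41, 57.4% (adjusted p = 0.0144). The Cu call was lost without either *Baf250a* KD Cu replicate (log2 fold changes of -0.83 and -0.77, adjusted p = 0.112 and 0.129). With Zn it was 6.55 CPM in replicate 1 and 13.6 in the shallow replicate 2, which rests on 7 counts, against 5.15 and 6.0 in scr (0.27 ± 0.23, adjusted p = 0.331).

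Over the treatments *Dpf1* in *Baf250a* KD had a log2 fold change of -0.62 ± 0.25 (adjusted p = 0.0555). It was called with RLE factors (-0.63, adjusted p = 0.0492) and without a filter on low counts (-0.66, adjusted p = 6.56e-04). The offset for GC content and length called it too (-0.78, adjusted p = 0.00679). Without the shallow library the fold change was -0.69 (adjusted p = 0.0248). The call also appeared without replicate 1 of *Baf250a* KD with Zn or without either Zn library of scr. With 1 library left out in turn the fold change ran from -0.89 to -0.43. As a share of the summed DPF level per length, *Dpf1* was 7.43 ± 0.723% in scr, 10.8 ± 0.777% in *Baf180* KD (exact permutation p = 0.00926, adjusted p = 0.0238) and 9.38 ± 1.29% in *Brd9* KD (exact permutation p = 0.00926, adjusted p = 0.0238). In *Baf250a* KD it was 7.43 ± 5.22%, and 5.42 ± 1.95% without the shallow library. The summed DPF level was lower in *Baf250a* KD, at 84.5% of scr (exact permutation p = 0.00926, adjusted p = 0.0370). *Dpf3* had 2 to 5 counts in a library of *Baf180* KD, 0 to 3 in *Baf250a* KD and 0 to 1 in *Brd9* KD, against 0 to 9 in scr. Its share of the DPF sum was higher in *Baf180* KD (0.238 ± 0.115% against 0.0592 ± 0.0693%, exact permutation p = 0.00926, adjusted p = 0.0238), which rests on these few counts.

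*Ss18*, the better expressed of the pair that joins BAF and ncBAF, was lower in *Baf180* KD cells over the treatments. It ran from 60.4 to 75.2 CPM (median 66.5) in scr and from 54.2 to 63.9 (median 56.7) in *Baf180* KD, with 4 of 6 libraries below the lowest of scr. The log2 fold change was -0.24 ± 0.08 (84.9% of scr, adjusted p = 0.0260). It ran from -0.28 to -0.20 without 1 library, and the *Ss18* call was lost in 7 of 12 such fits, those without either Cu or either Zn replicate of *Baf180* KD, either Zn replicate of scr or replicate 2 of scr Cu. It was also lost when genes under a mean of 50 normalized counts were dropped (-0.22, adjusted p = 0.0531) and with thinned libraries (-0.07, adjusted p = 0.828). By treatment, *Ss18* in *Baf180* KD was at 102% of scr in NT (log2 fold change 0.02, adjusted p = 0.879), 81.5% with Cu (-0.30, adjusted p = 0.124) and 73.9% with Zn (-0.44, adjusted p = 8.56e-04). The NT value turned to -0.35 (adjusted p = 0.00853) with the offset for GC content and length. In *Baf250a* KD *Ss18* ran from 50.6 to 63.1 CPM (-0.16 ± 0.08, adjusted p = 0.106) and passed without replicate 2 of scr NT. In *Brd9* KD it ran from 61.0 to 67.4 CPM (-0.07 ± 0.06, adjusted p = 0.466). With the offset *Ss18* was called lower in *Baf250a* KD (-0.37, adjusted p = 2.85e-04) and in *Brd9* KD (-0.17, adjusted p = 0.00408). The offset moved the median of all genes by -0.12 and -0.07 in these comparisons. *Ss18l1* (ENSMUSG00000039086.9, GRCm38 chr2:180042509-180070201, plus strand), the calcium-responsive paralogue known from neurons, did not pass in any KD over the treatments. It ran from 7.62 to 9.50 CPM in scr, 5.57 to 8.81 in *Baf180* KD, 5.83 to 10.7 in *Baf250a* KD and 7.94 to 9.70 in *Brd9* KD, with log2 fold changes of -0.30 ± 0.11, 0.18 ± 0.11 and -0.01 ± 0.09. In *Baf180* KD *Ss18l1* passed without replicate 2 of *Baf180* KD NT or replicate 2 of scr NT. There it also passed by DESeq2 (-0.31, adjusted p = 0.0442) and with RLE factors (-0.31, adjusted p = 0.0469). With the offset for GC content and length *Ss18l1* was at -0.41 in *Baf180* KD and passed (adjusted p = 0.0106).

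**Figure D3:**
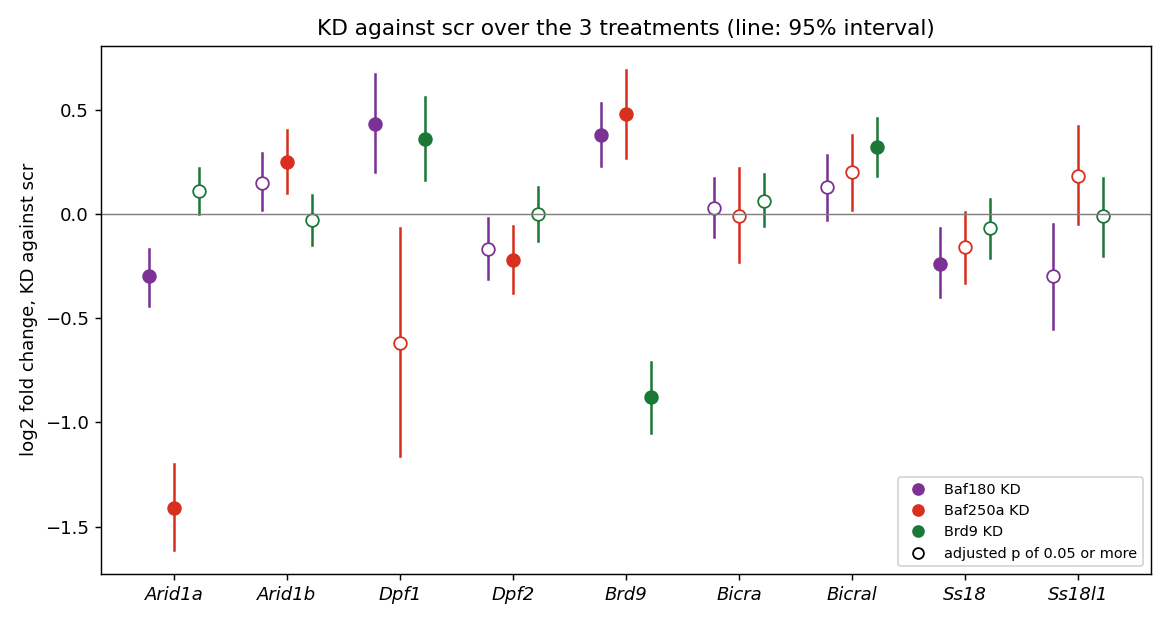
Log2 fold change of the 9 tested members in each KD against scr over the 3 treatments, with 95% intervals as vertical lines and filled points for an adjusted p below 0.05. *Arid1a* in *Baf250a* KD (-1.41) and *Brd9* in *Brd9* KD (-0.88) lay farthest from 0, and the other called values lay between -0.30 and 0.48.

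Counted over the treatments, 4 of 9 members were DEGs in *Baf180* KD (2 higher, 2 lower), where 41.3% of all genes tested were called. In *Baf250a* KD 4 of 9 were called (2 higher, 2 lower) beside 51.8% of all genes, and in *Brd9* KD 3 of 9 (2 higher, 1 lower) beside 32.8%. These shares were near the background, so the number of members called was not a feature of the list. The median log2 fold change of the members was 0.03, -0.01 and 0.00, against -0.02, -0.00 and 0.00 over all genes. Libraries of the KD and of scr did not overlap for 2 of 9 tested members in *Baf180* KD (*Arid1a*, *Brd9*), 2 in *Baf250a* KD (*Arid1a*, *Brd9*) and 2 in *Brd9* KD (*Brd9*, *Bicral*), while 24.1%, 28.5% and 16.3% of all genes did not overlap.

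At single treatments the number of members called varied, and several of the calls named here were lost when 1 library was left out. In *Baf180* KD 2 of 9 members were DEGs in NT (*Bicral* higher, *Dpf2* lower, beside 41.0% of all genes), 0 with Cu by edgeR and by DESeq2 (beside 24.9%, and 4 at an unadjusted p below 0.05) and 6 with Zn (beside 49.9%). The 6 were *Dpf1* at 161% of scr, *Brd9* at 136% and *Arid1b* at 118%, and *Arid1a* at 80.1%, *Ss18* at 73.9% and *Ss18l1* at 74.2%. The *Arid1b* call was lost without either Zn replicate of scr (0.27 and 0.21, adjusted p = 0.0691 and 0.178), and the offset for GC content and length reversed it to -0.04 (adjusted p = 0.629). With that offset *Dpf1* was at 0.33 in place of 0.69 and lost its call (adjusted p = 0.0775). In a fit of all 24 libraries *Arid1a* (-0.26, adjusted p = 0.0862) and *Ss18l1* (-0.36, adjusted p = 0.0619) were not called, and DESeq2 did not call *Ss18l1* (adjusted p = 0.141). With thinned libraries none of the 6 was called, *Dpf1* and *Ss18l1* being too low to be tested. The call for *Ss18l1* was lost without *Baf180* KD replicate 2 (-0.28) and without either Zn replicate of scr (-0.44 and -0.41). In NT the call for *Bicral* was lost without either *Baf180* KD replicate or without replicate 1 of scr (0.24, 0.31 and 0.24), and that for *Dpf2* without either *Baf180* KD replicate (-0.39 and -0.33). The *Bicral* call was also lost with RLE factors, with the offset, without a filter, by DESeq2 and with thinned libraries (0.23 to 0.57, adjusted p = 0.0567 to 0.282), and that of *Dpf2* without a filter (-0.32, adjusted p = 0.0537). With Cu the fit of all 24 libraries called *Arid1a*, *Brd9*, *Ss18* and *Ss18l1* (-0.35, 0.35, -0.29 and -0.44, adjusted p = 0.0229, 0.0385, 0.0102 and 0.0273). The offset called *Arid1a*, *Dpf2* and *Ss18l1* with Cu (-0.62, -0.32 and -0.59, adjusted p = 0.00558, 0.0478 and 0.0493). Without a filter *Arid1a* was called with Cu (-0.37, adjusted p = 0.0163).

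In *Baf250a* KD 5 of 9 members were DEGs in NT (*Brd9* and *Bicral* higher, *Arid1a*, *Dpf1* and *Dpf2* lower, beside 57.8% of all genes). With Cu 3 were called (*Brd9* higher, *Arid1a* and *Dpf1* lower, beside 41.2%) and with Zn 4 (*Brd9* higher, *Arid1a*, *Bicra* and *Ss18* lower, beside 57.5%). *Brd9* stood at 130% of scr in NT, 127% with Cu and 178% with Zn. The Zn value fell to a log2 fold change of 0.16 (adjusted p = 0.769) without replicate 1 of *Baf250a* KD with Zn, the deep library of the condition, and was 0.85 (adjusted p = 1.08e-21) without the shallow one. The calls of *Brd9* in NT and Cu were lost without either *Baf250a* KD replicate of that treatment (NT 0.34 and 0.41, Cu 0.28 and 0.40), and with the offset for GC content and length (0.24 and 0.18, adjusted p = 0.0663 and 0.210). *Bicra* with Zn, at 75.9% of scr, turned to a log2 fold change of 0.24 (adjusted p = 0.663) without replicate 1. *Ss18* with Zn, at 76.4% of scr, was -0.57 without it and lost its call. Without replicate 1 or 2 of scr with Zn, the calls of *Brd9* (0.69 and 0.70), *Bicra* (-0.23 and -0.24) and *Ss18* (-0.47 and -0.38) were lost as well, and DESeq2 called *Arid1a* alone. *Bicral* in NT was not called without either *Baf250a* KD replicate or replicate 1 of scr (0.26, 0.29 and 0.22), and *Dpf2* in NT not without *Baf250a* KD replicate 2 (-0.31).

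In *Brd9* KD 2 of 9 members were DEGs in NT (*Bicral* higher, *Brd9* lower, beside 29.2% of all genes), and *Brd9* was the only member called with Cu (beside 12.2%) and with Zn (beside 23.2%). That *Bicral* was called in NT alone does not show that its rise was limited to NT, since its log2 fold changes were 0.33 ± 0.12 with Cu and 0.17 ± 0.07 with Zn.

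The KDs were compared with each other, 6 libraries against 6, to see which differences set 1 KD apart. Between *Baf180* and *Baf250a* KD 3 of 9 members were called (beside 44.7% of all genes). In *Baf180* KD *Arid1a* stood at 223% and *Dpf1* at 213% of *Baf250a* KD (adjusted p = 6.25e-09 and 6.17e-05), and *Ss18l1* at 73.5% (adjusted p = 0.00396). *Brd9*, higher than in scr in both, was not shown to differ between them (-0.08 ± 0.08, adjusted p = 0.462), and neither was *Arid1b* (-0.06 ± 0.06, adjusted p = 0.448).

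Between *Baf180* and *Brd9* KD 7 of 9 were called (beside 40.8%). *Brd9* was 237% and *Arid1b* 112% of the level in *Brd9* KD, while *Arid1a* (74.0%), *Dpf2* (87.8%), *Bicral* (86.6%), *Ss18* (87.9%) and *Ss18l1* (80.8%) were lower. Between *Baf250a* and *Brd9* KD 5 of 9 were called (beside 54.1%). *Arid1a* stood at 34.0%, *Dpf1* at 49.3% and *Dpf2* at 85.2% of the *Brd9* KD level, *Brd9* at 256% and *Arid1b* at 120%. The *Arid1b* differences between *Brd9* KD and the other KDs no longer passed with the offset for GC content and length (log2 differences of 0.05 and 0.11, adjusted p = 0.307 and 0.141). *Bicral* did not pass between *Baf250a* and *Brd9* KD in the main fit (-0.14 ± 0.06, adjusted p = 0.0676). It passed with RLE factors (-0.17, adjusted p = 0.0360) and with the offset (-0.26, adjusted p = 0.00530). The offset also called *Ss18* between these 2 KDs (-0.21, adjusted p = 0.00429).

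Few members were called with the metals. With 9 members tested, the counts were not far from the shares of all genes given beside them. They are not read as a feature of the list. With Cu none of the 9 tested members was a DEG against NT in scr (beside 0.0333% of all genes), *Baf180* KD (beside 13.8%), *Baf250a* KD (beside 1.27%) or *Brd9* KD (beside 0.274%). With Zn none was a DEG in scr (beside 17.6%), *Baf180* KD (beside 0.0197%) or *Brd9* KD (beside 0.0334%) by edgeR. Over these 7 comparisons log2 differences ran from -0.43 to 0.42. Of all 72 member values with metal, 2 were called and 8 had an unadjusted p below 0.05. DESeq2 called 1 member in scr with Zn and none in the other 6 of the 7 comparisons.

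With Zn in *Baf250a* KD 2 of 9 members were called (beside 15.9% of all genes). *Dpf1* rose from 3.91 and 1.93 CPM to 6.55 and 13.6 (log2 difference 1.24 ± 0.32, adjusted p = 0.00914). *Brd9* went from 39.6 and 38.1 CPM to 53.7 and 33.1 (0.40 ± 0.13, adjusted p = 0.0316), so the Zn replicates lay on either side of the NT pair. DESeq2 called neither (*Brd9* 0.29, adjusted p = 0.642; for *Dpf1* it gave no adjusted p). With the offset for GC content and length neither passed (1.15 for *Dpf1* and 0.38 for *Brd9*, adjusted p = 0.0660 and 0.0619). Without the shallow replicate 2 the values were 1.13 for *Dpf1* and 0.46 for *Brd9* (adjusted p = 0.00616 and 0.00354), and *Bicra* was called too (-0.41, adjusted p = 0.0151). Without replicate 1 neither passed (2.21 for *Dpf1* and -0.21 for *Brd9*, adjusted p = 0.146 and 0.802). Without replicate 2 of NT neither passed (0.84 and 0.36), and without replicate 1 of NT *Brd9* did not (0.42).

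**Figure D4:**
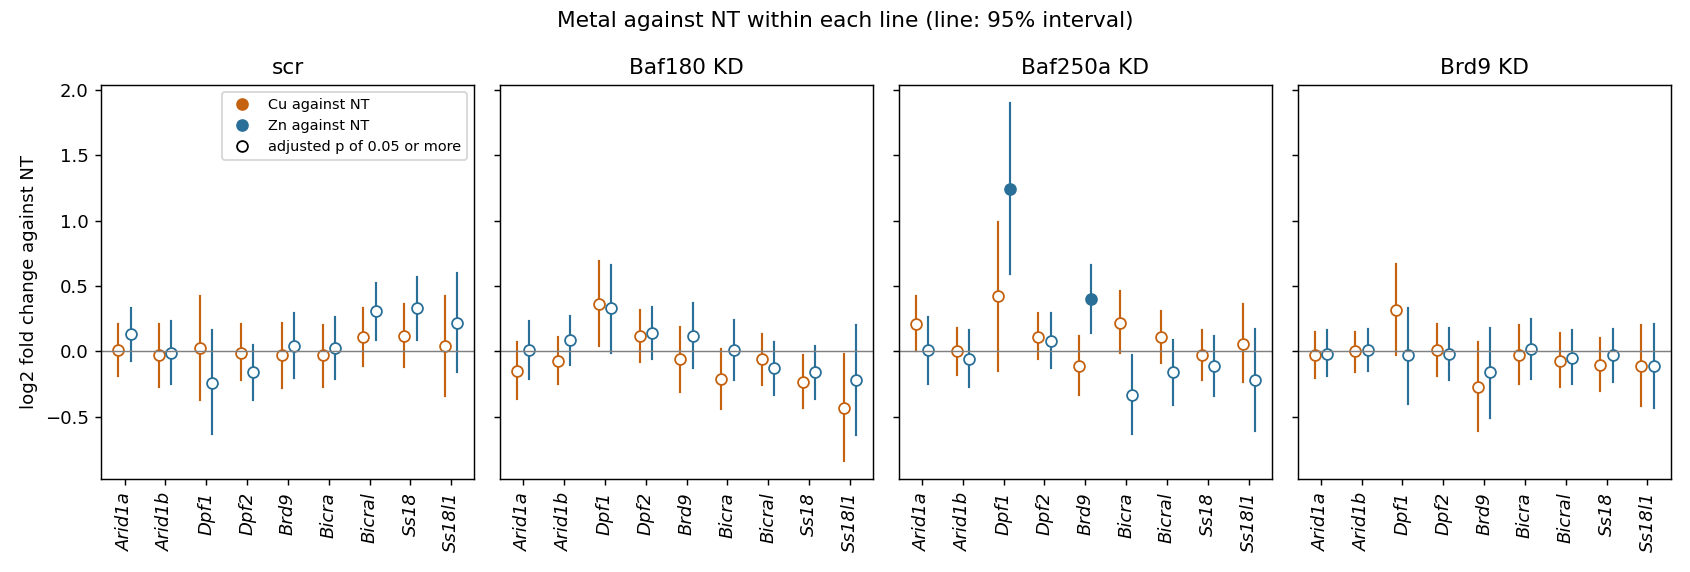
Log2 fold change of the 9 tested members with Cu (orange) or Zn (blue) against NT in each line, with 95% intervals as vertical lines and filled points for an adjusted p below 0.05. *Dpf1* (1.24) and *Brd9* (0.40) in *Baf250a* KD with Zn were the only filled points, and both rested on a condition with 1 shallow library.

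Whether a metal response differed between a KD and scr was tested with an interaction term in a fit of all 24 libraries. For Cu no member passed in *Baf180* KD (beside 12.8% of all genes called), *Baf250a* KD (beside 0.0121%) or *Brd9* KD (beside 0.0363%). Of these 27 values, that of *Ss18* in *Baf180* KD alone had an unadjusted p below 0.05 (adjusted p = 0.101). For Zn no member passed in *Brd9* KD (beside 11.1%), where *Ss18* alone had an unadjusted p below 0.05 (adjusted p = 0.136).

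For Zn in *Baf180* KD 2 of 9 passed (beside 28.7%). *Dpf2* was 105 and 104 CPM in scr NT and 89.2 and 87.2 with Zn, but 85.0 and 80.3 in *Baf180* KD NT and 99.2 and 85.2 with Zn (log2 difference between the responses 0.40 ± 0.14, adjusted p = 0.0392). The *Dpf2* call was lost with RLE factors (0.32, adjusted p = 0.0521) and with the offset for GC content and length (0.21, adjusted p = 0.298). *Bicral*, not called in the main fit, passed with RLE factors (-0.41, adjusted p = 0.0118), with that offset (-0.49, adjusted p = 0.0221) and with the replicate block (-0.33, adjusted p = 0.0495). *Ss18* went from 63.7 and 60.4 to 71.5 and 75.2 CPM with Zn in scr, and from 60.7 and 63.9 to 58.1 and 55.2 in *Baf180* KD (-0.38 ± 0.12, adjusted p = 0.0207). For Zn in *Baf250a* KD 3 of 9 passed (beside 30.5%): *Dpf1* (1.58 ± 0.34, adjusted p = 0.00201), *Bicral* (-0.37 ± 0.14, adjusted p = 0.0424) and *Ss18* (-0.37 ± 0.13, adjusted p = 0.0350). Without the shallow library they were 1.46, -0.38 and -0.34 (adjusted p = 0.00281, 0.0412 and 0.0510), and *Brd9* passed as well (0.51, adjusted p = 0.0381). With the offset for GC content and length the values of *Ss18* turned to 0.06 in *Baf180* KD and 0.16 in *Baf250a* KD (adjusted p = 0.801 and 0.396).

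Of 19 other SWI/SNF genes (PBAF-specific subunits, ATPases and the shared core), 18 were tested over the treatments. In *Baf180* KD 2 were called higher and 5 lower (beside 41.3% of all genes called). In *Baf250a* KD 2 were called higher and 4 lower (beside 51.8%), and in *Brd9* KD 2 higher and 4 lower (beside 32.8%). These counts are not read as a feature of the 18 genes. The largest rise in each KD was that of *Smarca2*, the gene of the BRM ATPase, at 314%, 443% and 365% of scr (adjusted p = 3.21e-07, 1.72e-07 and 1.84e-08). The largest fall was that of the targeted *Pbrm1* in *Baf180* KD (36.1% of scr, adjusted p = 4.76e-05), of *Phf10*, a PHD finger subunit of PBAF, in *Baf250a* KD (54.6%, adjusted p = 6.74e-07) and of *Smarcd3*, a core subunit known as BAF60c, in *Brd9* KD (78.0%, adjusted p = 5.16e-04). The median log2 fold change of the 18 was 0.02, -0.04 and 0.02.

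Genes with the pattern most like that of a member were found by Pearson correlation of log2 CPM over the 12 condition means, among 9301 other genes with a mean of at least 10 CPM, as a description. For *Arid1a* they were *Osbp2*, *Tmcc3* and *Igsf5* (r = 0.99 for each). *Osbp2* averaged 126 CPM in scr, 86.6 in *Baf180* KD, 17.2 in *Baf250a* KD and 139 in *Brd9* KD, the same order of lines as *Arid1a*. For *Arid1b* they were *Sertad3* (r = 0.97), *Map3k14* and *Rnf216* (both 0.96), and for *Brd9* *Thbs2*, *Arhgef10* (both 0.95) and *Ank1* (0.94). The points share 4 lines, so these values reflect mainly the differences between lines.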

How the data were processed

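RNA was depleted of rRNA and sequenced strand-specifically. Per the study's methods, the authors aligned reads to mm10 with STAR, kept unique alignments and counted them with featureCounts. The deposited values are raw counts, 1 row per gene symbol; the annotation release is not given in the sources used here. Tables holding the authors' own comparisons (fold changes and p-values from DESeq2) were not used. Groups follow the sample titles, since a treatment label contradicts them.

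Counts were tested here with edgeR 4.0.16 in R 4.3.3 (TMM, filterByExpr, quasi-likelihood test, Benjamini-Hochberg over all genes tested, called below 0.05). KD was set against scr at each treatment (4 libraries) and over the treatments (12 libraries, treatment as block), KD against KD likewise, metal against NT within a line (6 libraries), and metal responses of a KD against scr (24 libraries). Paralogue shares used exact permutation tests. The scripts were tested on simulated data. Alternatives were DESeq2 1.42.0, RLE factors, other filters (none, or a mean normalized count of 50), a replicate block, an offset for GC content and length (splines with 5 degrees of freedom, GENCODE values for 96.4% of symbols), thinning to the smallest total, 1 fit of all 24 libraries and leaving out libraries. The named genes were all members, the largest called rise and fall among the other SWI/SNF genes, and the 3 genes most like *Arid1a*, *Arid1b* and *Brd9*. Members and lists were chosen with earlier results of these data known. Intervals on shares cover counting error only, since reads carried no molecular identifiers.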

Additional observations from a re-analysis of the deposited data

Results flagged for a closer look

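In 8 of 64 groups of 6 libraries, the highest or lowest library stood apart from the nearest other by more than Dixon's 95% critical value allows, which chance gives in about 1 of 20 groups. Of these, 3 were in replicate 2 of *Baf250a* KD with Zn, the shallow library: *Ss18l1* at 5.83 CPM (3 counts, nearest 8.91), the *Dpf2* share at 82.5% (nearest 91.6) and the *Ss18* share at 80% (nearest 74.8). *Brd9* stood apart at 53.7 CPM in replicate 1 of the same condition (nearest 39.6) and at 45.4 CPM in replicate 1 of *Baf180* KD with Zn (nearest 38.8). *Arid1a* was at 338 CPM in replicate 2 of *Brd9* KD with Cu (nearest 317), *Dpf3* at 0.138 CPM, or 3 counts, in replicate 1 of *Baf250a* KD with Cu (nearest 0.0471), and the *Ss18* share at 75.6% in replicate 1 of scr NT (nearest 77.9).

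The response to Zn passed the test of a difference between a KD and scr, the interaction term, for 5 member values. In *Baf180* KD they were *Dpf2* (log2 difference 0.40) and *Ss18* (-0.38). In *Baf250a* KD they were *Dpf1* (1.58), *Bicral* (-0.37) and *Ss18* (-0.37). Those of *Baf250a* KD rest on a condition with 1 shallow library, without which *Ss18* did not pass (adjusted p = 0.0510). With the offset for GC content and length 3 of the 5 did not pass: *Dpf2* was 0.21 (adjusted p = 0.298), and *Ss18* turned to 0.06 in *Baf180* KD and 0.16 in *Baf250a* KD (adjusted p = 0.801 and 0.396). *Dpf2* did not pass with RLE factors either (0.32, adjusted p = 0.0521). *Bicral* in *Baf180* KD, not among the 5, passed with RLE factors (-0.41, adjusted p = 0.0118), with the offset (-0.49, adjusted p = 0.0221) and with the replicate block (-0.33, adjusted p = 0.0495).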

How the results depend on the processing

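Of 2757 recomputed member values, 2305 kept their direction and side of the threshold, 115 lost and 88 gained a call. Another 17, called in the main or the recomputed fit, reversed direction, and 232 changed direction without a call in either. Members called (of 9), against the main count, were as follows. Whether same-numbered replicates share more than a number is not stated in the sources used here. Correlations of their deviations between conditions ran from -0.18 to 0.39 (median 0.06). That range over all pairs of conditions does not show whether some of them shared a batch. The replicate block gave 0 in *Baf180* KD NT (main 2), 2 in *Baf250a* KD Zn (4), 3 in *Brd9* KD Zn (1) and 1 for Zn in *Baf250a* KD (2). With block and offset for GC content and length, counts were 2 in *Baf180* KD Cu (0), 1 in *Baf250a* KD Zn, 4 in *Brd9* KD Zn, 0 for Zn in *Baf250a* KD and 7 in *Baf180* KD over treatments (4). With the offset alone they were 3, 0 and 7 in *Baf180* KD Cu, Zn in *Baf250a* KD and *Baf180* KD over treatments, and 1 for the Zn response of *Baf180* KD (2). DESeq2 gave 1 in *Baf180* KD NT, 1 in *Baf250a* KD Zn, 1 for Zn in scr (0) and 0 for Zn in *Baf250a* KD. RLE gave 1 in *Baf180* KD NT. No filter gave 0 there, and 1 each in *Baf180* KD Cu, Zn in scr and Zn in *Baf250a* KD, and a mean of 50 gave 2 for Zn in scr. A fit of all 24 libraries gave 4 in *Baf180* KD Cu, 5 in *Baf250a* KD Cu (3), 2 in *Brd9* KD Cu (1), 1 for Zn in scr and 1 for Zn in *Baf250a* KD. Thinned to the smallest total, counts in NT, Cu and Zn were 1, 0 and 0 in *Baf180* KD. They were 2, 1 and 1 in *Baf250a* KD and 1, 0 and 0 in *Brd9* KD. Over treatments they were 0, 2 and 0 in the 3 KDs, and for Zn in *Baf250a* KD the count was 0. Thinning cut each library to 495778 counts, where the median library held 22158430. A call lost there is therefore no like check of the main fit. Leaving out a library gave 0 to 3, 0 to 1 and 4 to 6 in *Baf180* KD NT, Cu and Zn, 2 to 6, 1 to 6 and 1 to 4 in *Baf250a* KD, 0 to 2, 1 to 3 and 1 to 3 in *Brd9* KD, 3 to 5, 3 to 6 and 3 over treatments, and 0 to 3 for Zn in *Baf250a* KD. With the offset, with or without the block, direction reversed for *Ss18* in *Baf180* KD NT (-0.35), *Arid1b* (-0.04), *Dpf2* (-0.20) and *Bicra* (-0.32) in *Baf180* KD Zn, *Bicra* in *Baf180* KD over treatments (-0.22), *Arid1a* in *Brd9* KD Zn (-0.19, with the block) and the Zn responses of *Ss18* (0.06 and 0.16). Thinning turned *Brd9* in *Baf180* KD Zn to -0.00 and for Zn in *Baf250a* KD to -0.05. Without replicate 1 of *Baf250a* KD Zn, *Bicra* turned to 0.24 (range with 1 library left out -0.46 to 0.24) and the Zn value of *Brd9* to -0.21 (-0.21 to 0.46). Without replicate 2 the share differences of *Dpf1* and *Dpf2* turned to -2.00 and 1.99 points. The cause was not tested. The offset moved the median of all genes by up to -0.17. Genes called fell from 1827 to 8647 over the 12 KD comparisons with scr to between 278 and 3226 when thinned. Zn in scr called 2645 genes, 14 with the block, 17 with the offset and 5 without replicate 2 of scr Zn; *Baf250a* KD Zn called 8304, 2983 by DESeq2 and 4781 with the block.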
